A study of Homo sapiens with 6 samples.

Results

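RNA helicases of the DEAD and DEAH box families were followed in total RNA of NCI-H1299 cells, a long-established line of human lung cancer, sequenced with a hairpin against ALDH18A1 (shALDH18A1, 3 libraries) and with a control hairpin (shControl, 3 libraries). ALDH18A1 encodes P5CS, a mitochondrial enzyme of proline synthesis, and the series title presents this protein as an RNA-binding regulator of translation. The members are all rows of the authors' deposited table whose symbol is DDX or DHX with a number and an optional letter, together with MTREX, AQR, SNRNP200 and SKIC2. Of 54 rows that fit, the pseudogenes DDX12P and DDX12B were left out, which gave 52 genes of 25287. The helicase genes DDX28, DDX39B, DDX47 and DDX49 would fit the naming rule but were not listed under these symbols. The family and its roles are therefore not complete here, and counts refer to the listed members. The labels do not say whether the hairpin was stable or transient, whether the cells were 1 clone, or whether the 3 libraries of a group were separate cultures, and the p-values may therefore reflect technical spread alone.

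These proteins use ATP to unwind or remodel short RNA duplexes and to strip proteins from RNA. DEAD box members usually open duplexes locally and leave the strand afterwards, whereas DEAH box members and the related Ski2-like members move along a strand in 1 direction. Several DEAH box members are switched on by partner proteins with a G-patch. Between them they take part in most steps of an RNA's life, from transcription and splicing through ribosome assembly and nuclear export to translation and decay.

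All values were read from the authors' deposited table, which lists for each gene 1 mean normalized count over the libraries, 1 log2 fold change and its standard error (SE), and an adjusted p from DESeq2. The headers do not state the base of the logarithm, which is read here as the base that DESeq2 uses, log2. Single libraries were not analysed, and neither the spread between libraries nor the depth of each library can be shown. Its headers do not tell which group the fold change has on top, and the gene that the hairpin targets does not settle this, since ALDH18A1 lay at -0.08 (SE 0.07, DESeq2 adjusted p = 0.47) per the authors' deposited table. Genes are therefore placed on the positive or the negative side of the comparison, with no group assigned to either side. The epithelial keratin genes KRT8 and KRT18 had mean normalized counts of 18965 and 14244 and the mesenchymal gene VIM had 24591 per the authors' deposited table, whereas the epithelial genes EPCAM and CDH1 had 41.4 and 24.2. The surfactant gene SFTPB, a marker of lung adenocarcinoma, had a mean of 4.49 and the leukocyte gene PTPRC 12.8 per the authors' deposited table. Of 11 marker genes, 4 passed: KRT8 at 0.32, KRT18 at 0.61, VIM at -0.48 and the endothelial gene PECAM1 at 2.53 (mean count 116) per the authors' deposited table, whereas the endothelial gene VWF (mean count 81.4) lay at -0.11 and did not. The part of these differences in the results below was not tested.

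Most helicase genes lay on the negative side. An adjusted p under 0.05 was reached by 43 of the 52 members per the authors' deposited table, 35 of them on the negative side (67.3%) and 8 on the positive side (15.4%), and 9 were not called. Over all genes, 42.4% passed, 21.5% on the negative side and 20.9% on the positive side per the authors' deposited table. Helicase genes are abundant, with a median mean normalized count of 2109 against 63.7 for all genes per the authors' deposited table, and abundant genes pass more often. Of the 5706 genes whose mean count was 1000 or more, 50.0% passed on the negative side and 33.2% on the positive side, together 83.3%, per the authors' deposited table. Of the 36 helicase genes in that range, 25 (69.4%) passed on the negative side and 7 (19.4%) on the positive side per the authors' deposited table. The median log2 fold change was -0.53 over the 52 members, -0.49 over the 36 abundant members, 0.03 over all genes and -0.19 over all abundant genes per the authors' deposited table. No test of the family as a whole was made, and these shares are given as a description.

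The differences were moderate in size. Member values ran from -1.69 for DHX29 to 0.76 for DHX35 per the authors' deposited table, with quartiles of -0.76 and -0.14. A log2 fold change of -1 or lower with an adjusted p under 0.05 was reached by 7 of the 52 members per the authors' deposited table, where 7.06% of all genes did so. Of the 36 abundant members, 3 did so, beside 10.4% of abundant genes. No member reached 1 or higher per the authors' deposited table, whereas 10.9% of all genes and 12.1% of abundant genes did so with an adjusted p under 0.05. Of genes named DDX, 21 of 32 passed on the negative side (65.6%, median -0.46) per the authors' deposited table. Of genes named DHX, 12 of 16 did (75%, median -0.54), and the difference was not tested. The background for this call was 21.5% of all genes and 50.0% of abundant genes. With fold changes lowered by 0.12 to equal total counts in the 2 groups, 38 members passed on the negative side and 7 on the positive side, and the sign of DDX55, which did not pass, turned. Among the 48 members whose mean count reached 100, the log2 fold change had a Spearman correlation of 0.12 with mean count and 0.00 with exon length, and for 10266 protein-coding genes of that abundance these were -0.10 and 0.00. Genes are not independent replicates, and members share the same libraries, so no p is given.

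**Figure D1:**
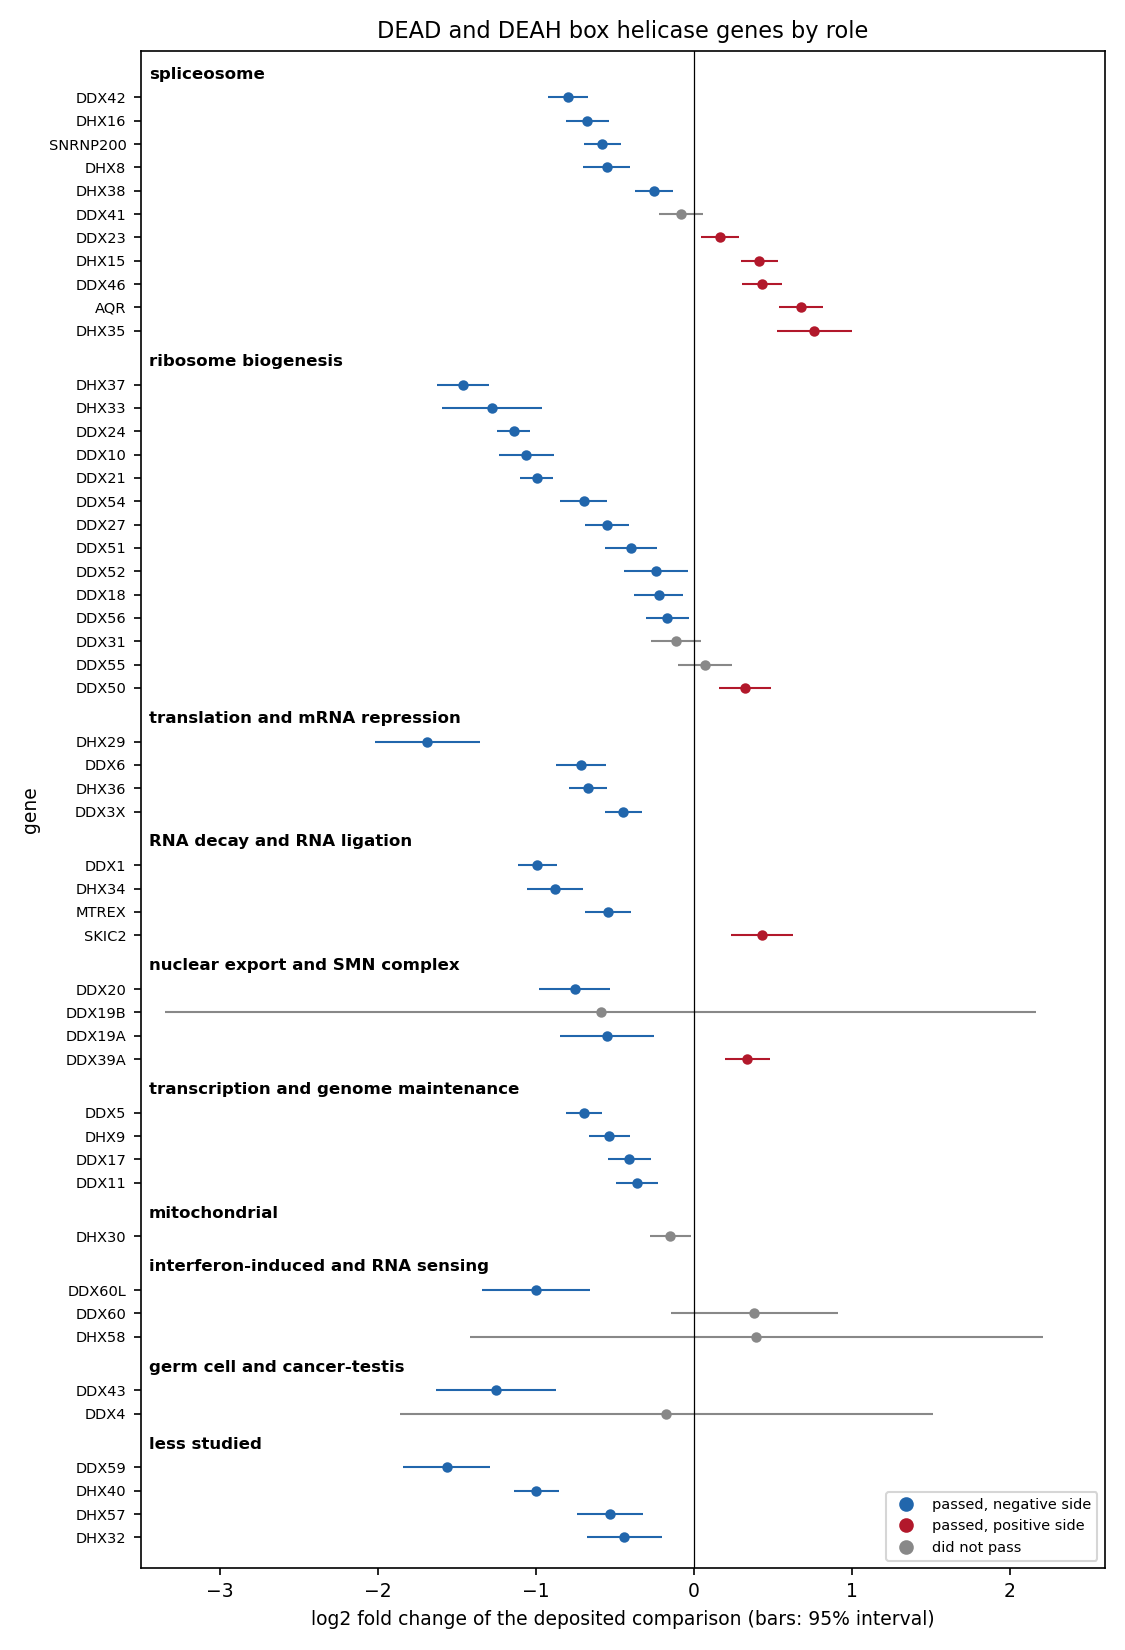
Log2 fold change per the authors' deposited table (horizontal axis; bars are 95% intervals) for 51 helicase genes grouped by role, blue where they passed on the negative side, red on the positive side and grey where they did not pass. The spliceosomal genes are found on both sides of 0, while the drawn genes of translation and of transcription all lie below it; DDX3Y is counted in the text and not drawn.

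**Figure D2:**
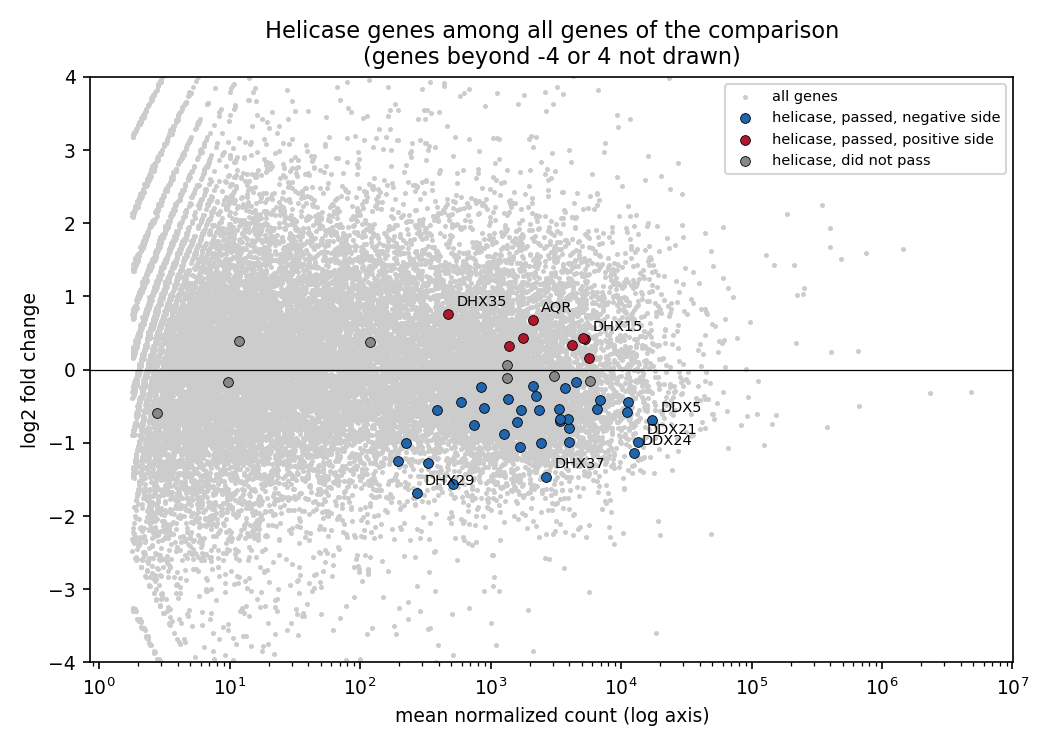
Log2 fold change (vertical axis) against mean normalized count (horizontal log axis) for all genes per the authors' deposited table (light grey) and for 51 helicase genes (coloured as passed or not). Most helicase genes have mean counts above 1000 and lie below 0, within the cloud of other genes of like abundance.

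The regulatory sequence upstream of 48 members could be matched by symbol to RefSeq windows on GRCh38.p14 that run from 250 bases before to 50 bases after a gene's start. A set of 4 windows is printed from members near the ends of the range, DHX29 and DHX37 on the negative side and DHX35 and AQR on the positive side. DDX59, at -1.56 more negative than DHX37 at -1.46, also has a window, which is not printed. Capitals mark every match, on either strand, of the E-box CACGTG, the CCAAT box CCAAT, the GC box GGGCGG, the ETS site CCGGAAG, the cyclic AMP response element TGACGTCA and the TATA box TATAAA. The windows are chr5:55307645-55307944 (minus strand) for DHX29, chr12:124989082-124989381 (minus strand) for DHX37, chr20:38962094-38962393 (plus strand) for DHX35 and chr15:34969693-34969992 (minus strand) for AQR.
DHX29: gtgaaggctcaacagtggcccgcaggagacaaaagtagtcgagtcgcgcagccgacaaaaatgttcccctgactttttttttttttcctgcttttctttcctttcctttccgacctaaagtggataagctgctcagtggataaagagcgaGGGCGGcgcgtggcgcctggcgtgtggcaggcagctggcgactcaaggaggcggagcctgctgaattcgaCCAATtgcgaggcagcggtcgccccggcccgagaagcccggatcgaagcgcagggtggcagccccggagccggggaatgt
DHX37: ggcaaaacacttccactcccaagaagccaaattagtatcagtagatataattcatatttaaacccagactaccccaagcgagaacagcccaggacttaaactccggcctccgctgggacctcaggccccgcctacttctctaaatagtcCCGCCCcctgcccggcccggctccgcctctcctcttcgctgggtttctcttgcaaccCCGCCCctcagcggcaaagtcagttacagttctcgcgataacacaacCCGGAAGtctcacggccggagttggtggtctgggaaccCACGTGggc
DHX35: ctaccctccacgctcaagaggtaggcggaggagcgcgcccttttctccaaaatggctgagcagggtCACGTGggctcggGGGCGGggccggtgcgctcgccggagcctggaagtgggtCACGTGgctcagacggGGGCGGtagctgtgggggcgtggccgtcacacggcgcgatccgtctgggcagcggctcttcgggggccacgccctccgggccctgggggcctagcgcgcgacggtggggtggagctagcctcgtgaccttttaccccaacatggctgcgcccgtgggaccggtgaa
AQR: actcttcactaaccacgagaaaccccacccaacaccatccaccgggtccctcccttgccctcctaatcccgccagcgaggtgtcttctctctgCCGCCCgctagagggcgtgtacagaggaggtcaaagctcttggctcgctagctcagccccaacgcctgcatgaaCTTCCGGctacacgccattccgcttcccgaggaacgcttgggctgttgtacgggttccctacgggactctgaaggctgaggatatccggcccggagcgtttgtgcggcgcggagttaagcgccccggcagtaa

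The DHX29 window holds 1 GC box and 1 CCAAT box, and the DHX37 window holds 2 GC boxes, 1 ETS site and 1 E-box close to its end. On the positive side, the DHX35 window holds 2 E-boxes and 2 GC boxes, and the AQR window holds 1 GC box and 1 ETS site. An ETS site was present in a window of 25 of the 48 members (52.1%), against 2457 of 14109 genes with a window (17.4%) and 1201 of 4677 whose mean count reached 1000 (25.7%). It was found in 17 of 32 members on the negative side and in 4 of 8 on the positive side per the authors' deposited table. The E-box was present in 9 of 48 members (18.8%), 11.4% of genes and 14.5% of abundant genes. The GC box was present in 68.8% of members, 67.9% of genes and 81.7% of abundant genes, and the CCAAT box in 45.8%, 41.9% and 43.6%. Matches of the cyclic AMP response element were found in 4 of 48 members (8.33%), 3.25% of genes and 4.17% of abundant genes, and of the TATA box in 3 of 48 (6.25%), 10.6% and 8.21%. A gene was counted if any of its windows held a match, and the 48 members had 64 windows. The shares therefore also depend on the number of windows per gene, which was not compared with that of other genes. None of these shares was tested. A match of letters does not show that a factor binds there.

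Helicases of the spliceosome were found on both sides. Of the 11 listed by the authors' deposited table, 5 passed on the negative side, 5 on the positive side and 1 did not pass (median -0.08). The share of 45.5% on each side is near that of abundant genes, 50.0% negative and 33.2% positive. Assembly and activation of the spliceosome need DDX46, which acts when the branch site is first recognised, DDX23, which lets the tri-snRNP join, SNRNP200, which unwinds the paired small nuclear RNAs of that particle, and DHX16, which drives the last step before catalysis. DDX46 lay at 0.43 (SE 0.06, DESeq2 adjusted p = 1.2e-10) and DDX23 at 0.16 (SE 0.06, adjusted p = 0.021) per the authors' deposited table. SNRNP200 lay on the other side at -0.58 (SE 0.06, adjusted p = 3.3e-21), as did DHX16 at -0.67 (SE 0.07, adjusted p = 4.5e-22), per the authors' deposited table. The call of DDX23 did not hold with fold changes shifted to a median of 0 over all genes (adjusted p = 0.082) or to equal total counts (adjusted p = 0.63). The helicases of the early steps were therefore found on both sides.

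The helicases of the later steps of splicing were also divided. DHX38, which remodels the spliceosome before the second catalytic step, lay at -0.25 and DHX8, which releases the spliced mRNA, at -0.55 per the authors' deposited table, both past the threshold on the negative side. DHX15, which takes the spent spliceosome apart, lay at 0.41 (SE 0.06, DESeq2 adjusted p = 3.1e-11) on the positive side per the authors' deposited table, with implied means of 6015 in the numerator group and 4518 in the denominator group. Implied means follow from the mean count and the fold change if both groups have 3 libraries. The 2 largest positive values of the whole family belonged to spliceosomal genes per the authors' deposited table. DHX35, a protein found in catalytic spliceosomes, lay at 0.76 (SE 0.12, adjusted p = 1.7e-09), or 1.70-fold, per the authors' deposited table, with implied means of 594 and 350.1 in the numerator and the denominator group. AQR, which binds introns and belongs to another helicase superfamily branch, lay at 0.68 (SE 0.07, adjusted p = 1.1e-20), or 1.60-fold, per the authors' deposited table, with implied means of 2598 and 1626 in the numerator and the denominator group. DDX42, an associate of the branch site complex, was the most negative of these genes at -0.80 (SE 0.06, adjusted p = 3.3e-34) per the authors' deposited table. DDX41, found in catalytic spliceosomes and mutated in familial myeloid cancers, did not pass at -0.08 (adjusted p = 0.38) per the authors' deposited table, though it passed with equal total counts (-0.20, adjusted p = 0.011).

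Helicases of ribosome biogenesis, which remodel precursor ribosomal RNA and release small nucleolar RNAs from it in the nucleolus, are the largest role among the listed members. Of the 14 listed by the authors' deposited table, 11 passed on the negative side, 1 on the positive side and 2 did not pass (median -0.47). The shares were 78.6% and 7.14%, beside 50.0% and 33.2% of abundant genes and 21.5% and 20.9% of all genes, and the median mean count of the 14 was 1888. DHX37, which dismantles the early precursor of the small subunit, lay at -1.46 (SE 0.08, DESeq2 adjusted p = 6.1e-65) per the authors' deposited table, with implied means of 1420.1 in the numerator group and 3913 in the denominator group. DDX24, a nucleolar protein of precursor processing, lay at -1.14 (SE 0.05, adjusted p = 4.0e-101), the smallest adjusted p of the family per the authors' deposited table, with implied means of 7799 and 17194 in the numerator and the denominator group. These differences are a factor of 2.76 and 2.20 lower in the numerator group. DDX21, which couples ribosomal RNA transcription to processing, lay at -0.99 (SE 0.05, adjusted p = 2.9e-77) per the authors' deposited table, with implied means of 9055 and 18033 in the numerator and the denominator group.

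The remaining nucleolar helicases had smaller values or lower counts. DDX10, of the small subunit pathway, lay at -1.06 (SE 0.09, DESeq2 adjusted p = 2.9e-31) and DHX33, which takes part in ribosomal RNA synthesis, at -1.28 (SE 0.16, adjusted p = 1.3e-14) per the authors' deposited table. DDX54 at -0.70, DDX27 at -0.55, DDX51 at -0.40, DDX52 at -0.24, DDX18 at -0.22 and DDX56 at -0.17 also passed on the negative side per the authors' deposited table. DDX52 and DDX56 passed narrowly, with DESeq2 adjusted p-values of 0.047 and 0.041 per the authors' deposited table. DDX31 at -0.11 (adjusted p = 0.30) and DDX55 at 0.07 (adjusted p = 0.59) did not pass per the authors' deposited table. DDX50, the close relative of DDX21, lay at 0.32 (SE 0.08, DESeq2 adjusted p = 0.00044) and was the 1 member of this role on the positive side per the authors' deposited table.

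Helicases that act on translation and on stored mRNA had no member that passed on the positive side, and 4 of 5 passed on the negative side per the authors' deposited table, where 50.0% of abundant genes and 21.5% of all genes did. DHX29, which binds the small ribosomal subunit and helps it to scan structured leader sequences, had the most negative value of the family at -1.69 (SE 0.17, DESeq2 adjusted p = 2.7e-22) per the authors' deposited table. Its mean normalized count was 272, which implies means of 129 in the numerator group and 415 in the denominator group per the authors' deposited table, a factor of 3.22. DDX6, which represses translation and promotes decapping, lay at -0.71 (SE 0.08, adjusted p = 6.6e-18) and DHX36, which resolves G-quadruplexes, at -0.67 (SE 0.06, adjusted p = 5.7e-26) per the authors' deposited table. DDX3X, which aids initiation on structured leaders, lay at -0.45 (SE 0.06, adjusted p = 5.5e-13) per the authors' deposited table, at a mean count of 11268. DDX3Y is the fifth member of this role, did not pass, and is counted here without its values.

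Helicases of RNA decay and RNA ligation passed throughout, 3 on the negative and 1 on the positive side per the authors' deposited table, and 83.3% of abundant genes passed on either side. MTREX, which feeds nuclear RNA to the exosome, lay at -0.54 (SE 0.07, DESeq2 adjusted p = 1.4e-12) per the authors' deposited table. SKIC2, its cytoplasmic counterpart in the Ski complex, lay on the other side at 0.43 (SE 0.10, adjusted p = 7.0e-05) per the authors' deposited table. DHX34, a factor of nonsense-mediated decay, lay at -0.88 (SE 0.09, adjusted p = 5.7e-21) per the authors' deposited table. DDX1, a subunit of the tRNA ligase complex, lay at -0.99 (SE 0.06, adjusted p = 1.4e-56) per the authors' deposited table, with implied means of 2691 and 5345 in the numerator and the denominator group.

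Nuclear export and assembly of spliceosomal particles gave 4 members. DDX39A, which loads export factors onto mRNA, lay at 0.34 (SE 0.07, DESeq2 adjusted p = 1.5e-05) on the positive side per the authors' deposited table. DDX19A, of the group that releases mRNA at the nuclear pore, lay at -0.55 (SE 0.15, adjusted p = 0.00088) and DDX20, a component of the SMN complex, at -0.75 (SE 0.11, adjusted p = 2.2e-10) per the authors' deposited table. DDX19B had a mean count of 2.78 and did not pass per the authors' deposited table, and its SE of 1.41 leaves its side unknown. The genes of this role were thus found on both sides.

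All 4 helicases of transcription and genome maintenance passed on the negative side per the authors' deposited table, as did 50.0% of abundant genes. DDX5 and DDX17, coregulators of transcription, splicing and microRNA processing, lay at -0.69 (SE 0.06, DESeq2 adjusted p = 9.7e-33) and -0.41 (SE 0.07, adjusted p = 1.6e-08) per the authors' deposited table. DHX9, which resolves RNA-DNA hybrids, lay at -0.53 (SE 0.06, adjusted p = 1.3e-15) per the authors' deposited table. DDX11, a DNA helicase of sister chromatid cohesion, lay at -0.36 (SE 0.07, adjusted p = 6.7e-07) per the authors' deposited table. The mitochondrial RNA granule helicase DHX30 lay at -0.15 and did not pass (adjusted p = 0.057) per the authors' deposited table. It passed when p-values were adjusted over genes whose mean count reached 10 (adjusted p = 0.043) and with equal total counts (-0.27, adjusted p = 0.00019).

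Interferon-induced, germ cell and less studied genes were the last of the 52 listed members. The antiviral genes DDX60 (0.38, SE 0.27, mean count 120) and the RNA sensor gene DHX58 (0.40, SE 0.92, mean count 11.9) did not pass per the authors' deposited table, while DDX60L lay at -0.999 (SE 0.17, DESeq2 adjusted p = 5.0e-08). DDX43, a cancer-testis antigen, lay at -1.25 (SE 0.19, adjusted p = 6.2e-10) at a mean count of 195, and the germ cell helicase DDX4 had a mean of 9.81 and did not pass per the authors' deposited table. All 4 members with little known function passed on the negative side per the authors' deposited table, as did 21.5% of all genes and 50.0% of abundant genes. The median mean count of these members was 742. DDX59, whose gene is mutated in an orofaciodigital syndrome, was the second most negative member at -1.56 (SE 0.14, adjusted p = 1.2e-27), with implied means of 259 and 767 in the numerator and the denominator group per the authors' deposited table. DHX40 lay at -0.997 (SE 0.07, adjusted p = 3.3e-41), DHX57 at -0.53 (SE 0.11, adjusted p = 3.5e-06) and DHX32 at -0.44 (SE 0.12, adjusted p = 0.0008) per the authors' deposited table.

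Levels were compared between genes per kilobase of exon, as mean normalized count over the exon length of GENCODE release 29. That length merges the exons of all annotated transcripts of a gene, so the order of genes also depends on this choice. For DDX5 it was 7388 bases in a gene that spans 8.584 kb. By mean count alone, DDX5 (17219) stood above DDX21 (13544). DDX21 had the highest level at 2698 per kb, followed by DDX5 at 2331, DDX24 at 1447, DHX9 at 1154 and DDX56 at 1107. After these nucleolar and transcriptional helicases, the export gene DDX39A (1092 per kb) and the spliceosomal gene DDX23 (1056 per kb) came next. The spread over libraries is unknown, so neighbours in this order, such as DDX21 and DDX5 or DDX56 and DDX39A, cannot be told apart beyond it. DHX29, the most negative member, had a level of 57.4 per kb and ranked 44 of 52, and DHX35, the most positive, had 95.7 per kb and ranked 41. At the low end, DHX58 had 3.09 per kb, DDX4 2.56 and DDX19B 0.615. The 52 genes together made up 0.397% of the mean normalized counts per the authors' deposited table.

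**Figure D3:**
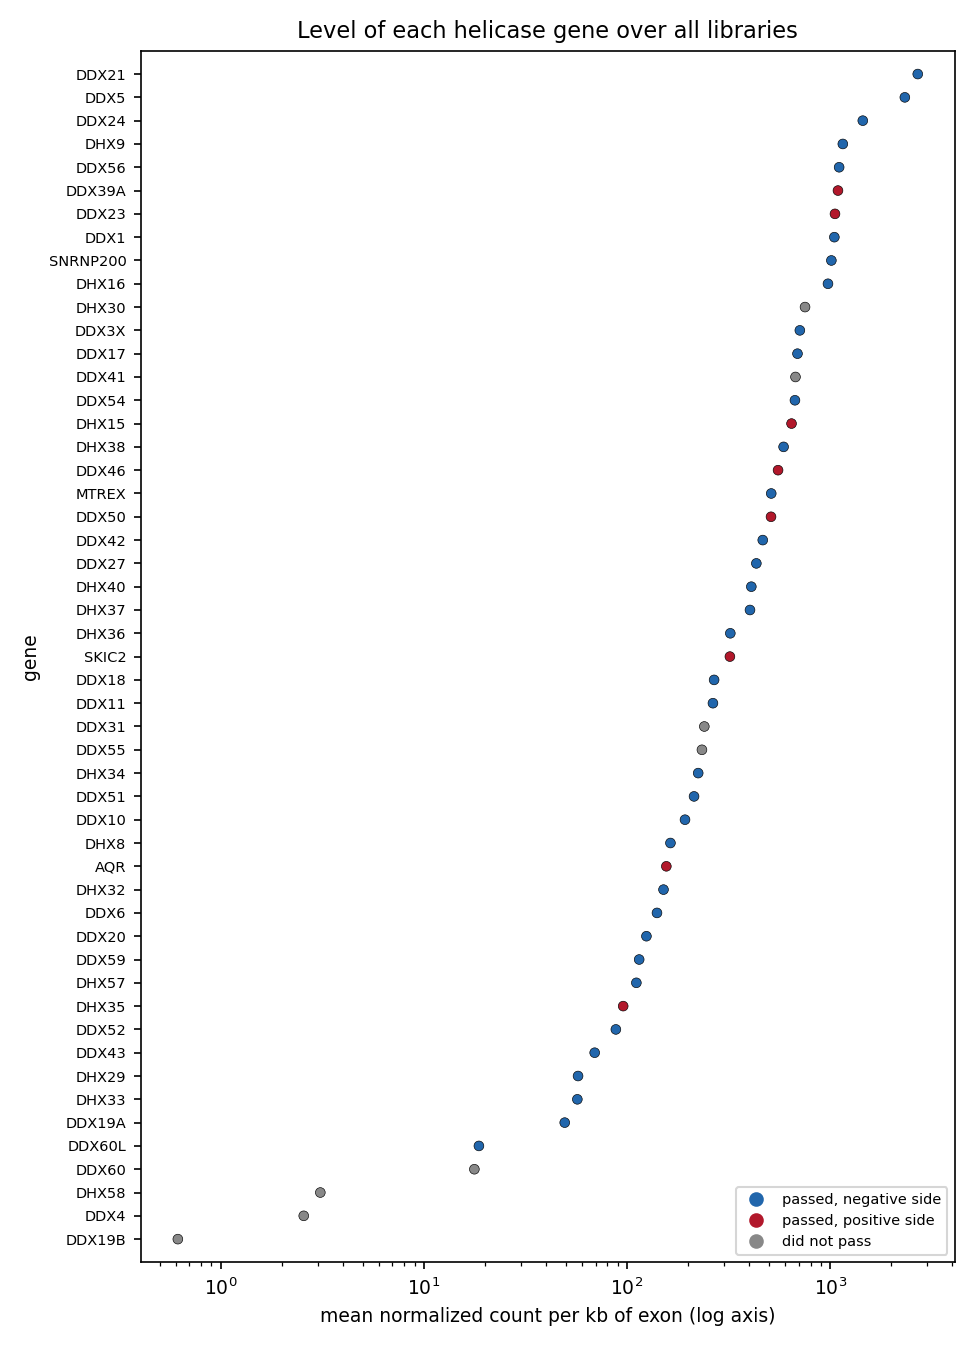
Mean normalized count per kilobase of exon over all libraries (horizontal log axis) for 51 helicase genes in order of level, coloured by side as passed or not. DDX21, DDX5 and DDX24 lead with more than 1000 per kb and lie on the negative side, while genes on the positive side are found from DDX39A (1092 per kb) down to DHX35 (95.7 per kb).

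Close relatives did not always share a side. DDX21 and DDX50 stand in tandem on chromosome 10 with 9280 bases between them, and their log2 fold changes of -0.99 and 0.32 differed by -1.32 (95% interval -1.51 to -1.12) per the authors' deposited table. Intervals of such differences take the errors of both genes as independent, which was not tested. DDX60 and DDX60L are neighbours on chromosome 4, and the value of DDX60 exceeded that of DDX60L by 1.38 (95% interval 0.75 to 2.01) per the authors' deposited table. MTREX and SKIC2 differed by -0.97 (95% interval -1.22 to -0.73), and DHX15 and DHX32 by 0.85 (95% interval 0.59 to 1.12) per the authors' deposited table. DDX5 and DDX17 shared the negative side and still differed by -0.28 (95% interval -0.46 to -0.11) per the authors' deposited table. DHX33 and DHX37, both nucleolar, differed by 0.18 with an interval from -0.17 to 0.54 per the authors' deposited table, so no difference between them was resolved. For DDX19A against DDX19B the interval ran from -2.73 to 2.81, and for DDX4 against DDX3X from -1.42 to 1.96, per the authors' deposited table, too wide for any statement.

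DHX29 and MTREX are transcribed away from each other on chromosome 5, and their RefSeq promoter windows overlap by 206 bases, so the DHX29 sequence above also holds most of the MTREX window read from the other strand. Both lay on the negative side per the authors' deposited table, and DHX29 was lower than MTREX by a log2 fold change difference of -1.15 (95% interval -1.51 to -0.78). Of the antisense and divergent partners of members, DDX11-AS1 passed at -0.45 (SE 0.18, DESeq2 adjusted p = 0.033) beside DDX11 at -0.36 per the authors' deposited table. DDX59-AS1 (0.97, SE 0.51), DHX35-DT (-1.50, SE 1.06) and DHX9-AS1 (-0.33, SE 0.39) did not pass per the authors' deposited table. These RNAs had mean counts of 26.3, 6.97 and 47.8 per the authors' deposited table, far below those of their partner genes.

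Counts of some members may include reads of other genes or lack reads that match several genes. Whether counting used strand, and how reads with several matches were treated, is not known from the labels. In GENCODE transcripts, 5 of the 52 members share more than 10% of their 50-base windows with transcripts of other genes. The shares were 33.3% for DDX19B, 25.4% for DDX19A, 17.7% for DDX11, 15.2% for DDX43 and 14.4% for DHX40. The pseudogenes DDX12P (0.56, SE 0.11) and DDX12B (0.54, SE 0.13) lay on the positive side per the authors' deposited table, opposite to DDX11. Without these 5 members, 31 of 47 passed on the negative side and 8 on the positive side per the authors' deposited table. Exons of other genes overlapped 20.2% of the exon length of DDX43, and OOEP on the opposite strand overlapped it the most. For DDX19A and DDX19B such overlap was 26.9% and 19.7%. There AC012184.2 on the same strand overlapped the most. Whether the low level of DDX19B reflects reads lost in this way was not tested.

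**Figure D4:**
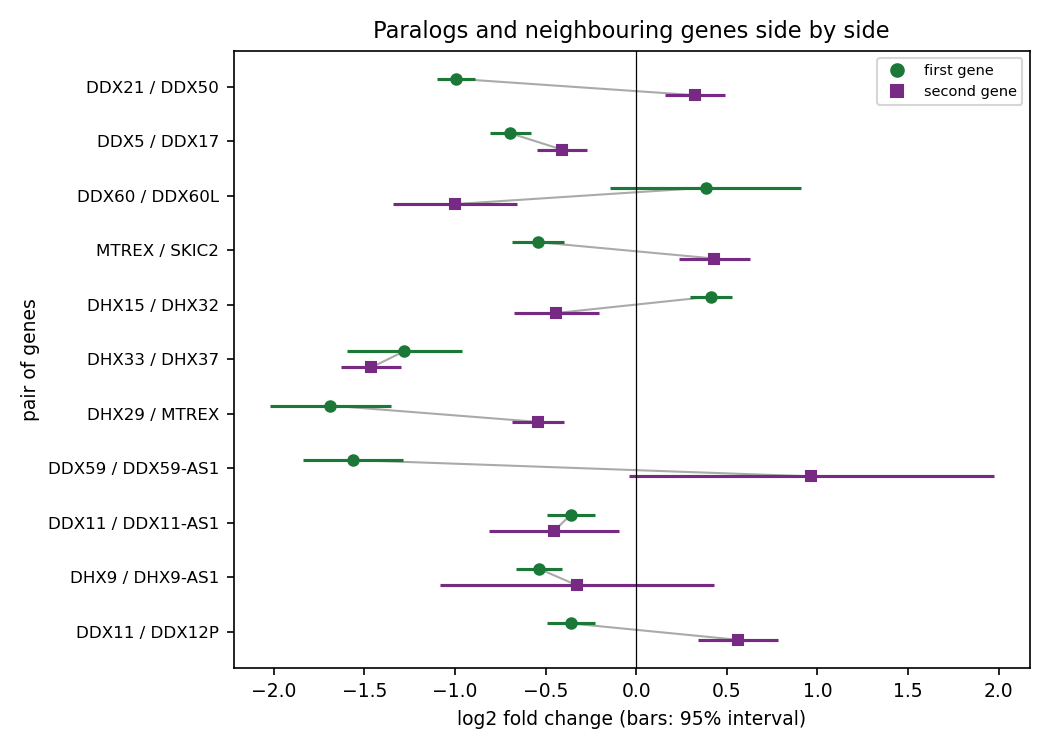
Log2 fold change per the authors' deposited table (horizontal axis; bars are 95% intervals) for pairs of related or neighbouring genes, the first gene as a green circle and the second as a purple square. DDX21 and DDX50, MTREX and SKIC2, and DHX15 and DHX32 lie on opposite sides of 0, while DHX33 and DHX37 overlap.

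Partner genes of the helicases passed on the negative side more often than on the positive side in 6 of the 7 lists examined. Over 7 partner lists, 60 of 95 genes passed on the negative side, 16 on the positive side and 19 did not pass per the authors' deposited table (median -0.32). These are shares of 63.2% and 16.8%, beside 50.0% and 33.2% of abundant genes and 21.5% and 20.9% of all genes, and the median mean count of the partners was 1519. No test set any partner list against the other genes or lists. Partners of DDX6 in decapping and deadenylation had 14 of 18 that passed on the negative side and 2 on the positive side per the authors' deposited table (median -0.44). LSM14A, which binds DDX6, lay at -1.02 (SE 0.06) at a mean count of 10995, LSM14B at -1.14 (SE 0.08), the decapping scaffold EDC4 at -1.13 (SE 0.09) and DCP1A at -1.09 (SE 0.09) per the authors' deposited table. The tRNA ligase complex had 4 of 5 partners of DDX1 that passed on the negative side per the authors' deposited table and none on the positive side. Its catalytic subunit RTCB lay at -0.998 (SE 0.07), beside DDX1 at -0.99, C2orf49 at -0.67 (SE 0.12), FAM98B at -0.41 (SE 0.11) and RTRAF at -0.29 (SE 0.07) per the authors' deposited table.

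Activators and export partners were examined next. G-patch proteins, several of which switch on DEAH helicases, had 12 of 20 that passed on the negative side and 2 on the positive side per the authors' deposited table (median -0.27). These are shares of 60% and 10%, beside 50.0% and 33.2% of abundant genes and 21.5% and 20.9% of all genes. GPKOW, a partner of DHX16, lay at -1.07 (SE 0.09), GPATCH3 at -1.14 (SE 0.11), the splicing factor RBM17 at -0.77 (SE 0.09) and TFIP11, an activator of DHX15, at -0.73 (SE 0.10) per the authors' deposited table. TFIP11 thus lay opposite to DHX15. The 2 G-patch genes that passed on the positive side, the side of DHX15, were CMTR1 at 0.48 (SE 0.07) and GPATCH1 at 0.25 (SE 0.10) per the authors' deposited table. Exon junction and TREX export genes had 11 of 14 that passed on the negative side and 1 on the positive side per the authors' deposited table (median -0.34). Their shares of 78.6% and 7.14% stand beside the same background. THOC3 (-0.65, SE 0.07), THOC6 (-0.78, SE 0.11) and ALYREF (-0.51, SE 0.07) stood on the negative side per the authors' deposited table, and MAGOHB, a core exon junction protein, was the exception at 0.90 (SE 0.10).

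Of the exosome genes and their adaptors, 8 of 18 passed on the negative side and 5 on the positive side per the authors' deposited table (median -0.20). These shares of 44.4% and 27.8% are near those of abundant genes, 50.0% and 33.2%. SKIC3, the scaffold of the Ski complex, lay at -0.62 (SE 0.07) per the authors' deposited table, opposite to its helicase SKIC2. The nuclear exosome nuclease gene EXOSC10 lay at -0.51 (SE 0.07), while EXOSC2 at 0.63 (SE 0.08) and ZFC3H1, an adaptor of MTREX, at 0.57 (SE 0.10) lay on the positive side per the authors' deposited table.

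The eIF4A genes are DEAD box genes under other names. EIF4A2 and EIF4A3 both passed on the positive side, while their partners were found on both sides. EIF4A1 was not among the genes listed. Among eIF4A helicases and their partners, 4 of 9 passed on each side per the authors' deposited table (median 0.15). That share of 44.4% stands beside 50.0% of abundant genes on the negative side and 33.2% on the positive side. EIF4A2, an initiation helicase, lay at 0.73 (SE 0.07, DESeq2 adjusted p = 1.1e-23) and EIF4A3, the helicase of the exon junction complex, at 0.47 (SE 0.07, adjusted p = 2.7e-10) per the authors' deposited table. PDCD4, an inhibitor of eIF4A, lay at -1.38 (SE 0.07), and the scaffolds EIF4G1 and EIF4G2 at -0.81 (SE 0.05) and -0.80 (SE 0.07), per the authors' deposited table. The related scaffold EIF4G3 passed on the positive side at 0.68 (SE 0.08), as did EIF4H at 0.15 (SE 0.05), per the authors' deposited table. Other RNA helicases outside the naming rule had 7 of 11 that passed on the negative side and 2 on the positive side per the authors' deposited table (median -0.52). These are shares of 63.6% and 18.2%, beside 50.0% and 33.2% of abundant genes. ZNFX1 at -1.76 (SE 0.09), the nonsense-mediated decay helicase UPF1 at -1.10 (SE 0.06) and TDRD9 at -0.68 (SE 0.08) stood on the negative side per the authors' deposited table, and MOV10, an antiviral helicase, lay at 1.44 (SE 0.11).

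**Figure D5:**
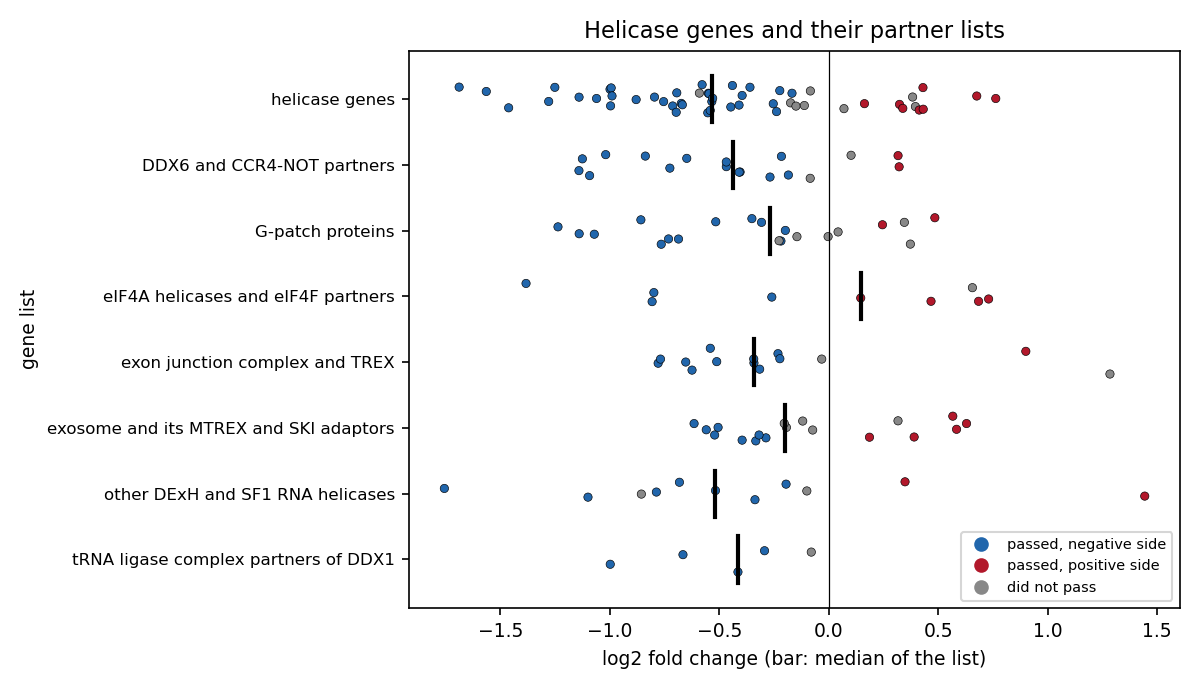
Log2 fold change per the authors' deposited table (horizontal axis) for 51 helicase genes and for each of 7 partner lists, each point a gene coloured by side as passed or not, with the list median as a black bar. The bars lie below 0 for the helicase genes and for 6 of the 7 partner lists, and above 0 for the eIF4A helicases and eIF4F partners.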

How the data were processed

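The submitters' processing notes name fastp 0.23.2, STAR 2.7.10a, featureCounts and DESeq2, with the hg38 build. The mean normalized count is a signal that the authors averaged over libraries. The authors deposited the log2 fold change and SE, the Wald score, the p-value and its adjusted form, per the file headers, which do not state the log base. Of 25289 rows, exact duplicates were dropped, which left 25287 genes. Benjamini-Hochberg adjustment of the p-values over these genes gives back the adjusted values. No values per library were analysed here, so the planned edgeR fit was not run. Depth per library is unknown.

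Intervals of 95% take 1.96 SE on each side. Coordinates, exon lengths and shared 50-base windows come from GENCODE release 29 (GRCh38), and promoter windows from RefSeq (GRCh38.p14). Shifted fold changes were tested again as a normal score with adjustment over all genes. A check on simulated data drew values from the same normal model with the deposited SEs and changed only a small set of genes. It could therefore not show errors in those SEs or effects of a widespread change. Members, roles and partner lists were chosen with earlier results of these data known. Named in full were the 5 largest values on each side with a mean count of at least 100, up to 4 members per role and partner list by adjusted p, and relatives, DDX3Y excepted. EIF4A3, EIF4G3, EIF4H, CMTR1, GPATCH1 and neighbouring RNAs were named after their values were seen. Python 3.11.15, numpy 2.4.6, pandas 2.3.3, scipy 1.17.1 and matplotlib 3.10.9 were used.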

Additional observations from a re-analysis of the deposited data

How the results depend on the processing

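No paired analysis was possible because values of single libraries were not analysed here, and for the same reason the edgeR fit and the fits that leave out a library were not run. Of the 35 negative and 8 positive calls, a minimum absolute log2 fold change of 1 left 7 and 0, and a minimum of 0.5 left 26 and 2, by construction. The counts stayed between 31 and 38 on the negative side and between 7 and 8 on the positive side with an adjusted p under 0.01, an unadjusted p under 0.05, a mean count of at least 10, both shifts and, chosen after the data were seen, without the 5 members that share windows. With equal total counts the median was -0.65 in place of -0.53 and DDX55, not called, turned to -0.049. DHX30, DDX31 and DDX41 passed only under some alternatives, and DDX23 did not pass under either shift. SEs of 0.86 to 1.41 at mean counts under 15 leave the sides of 4 members unknown.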
